A study of Homo sapiens with 2 samples.

Results

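The MYC locus on chromosome 8 was examined by ChIP-seq in KYSE510, a line established from a human squamous carcinoma of the esophagus, with antibodies to MLL3 and to GRHL2. MLL3 (KMT2C) is a histone methyltransferase that acts at enhancers, whereas GRHL2, of the Grainyhead family, is a transcription factor that maintains epithelial identity. Chromatin of formalin-fixed cells, for which the labels name no treatment, gave 1 library per antibody, and each list of enriched regions was called against input. The members are the regions of either list whose summit lies between 128000000 and 130600000 on chromosome 8 (hg19). This stretch of 2.6 Mb was set by position, though with earlier results of these data known. The members were 11 MLL3 regions of 12196 in the list and 31 GRHL2 regions of 153209, or 42 of 165405 in all. Since each antibody had 1 library, no test was made, and the 95% intervals below reflect only how many regions were counted, as if each were independent.

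MYC encodes a basic helix-loop-helix leucine zipper transcription factor that drives cell growth and proliferation and is an oncogene in many cancers. It lies in a gene desert, and its expression depends on distal enhancers in that desert, which differ between tissues and are spread over long distances on both sides of the gene. In the order of genes given by RefSeq for a later genome build (GRCh38.p14), POU5F1B, a retrogene, is the nearest protein-coding gene before MYC, and LRATD2 lies before POU5F1B. GSDMC, a gasdermin gene, is the nearest protein-coding gene after it. Long noncoding RNA genes fill much of the rest, among them PCAT1, CCAT1, CASC8, CCAT2 and CASC11 before MYC and PVT1, LINC00824, LINC00977 and CCDC26 after it. MYC itself lies at 128748 to 128754 kb on the plus strand. Regions below are not assigned to any of the other genes, because no hg19 annotation was used here. Distances are measured from the start of MYC, which is known here to the nearest kb.

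Neither factor had a strong region at MYC itself. The 46 kb made up of MYC and 20 kb to either side held no MLL3 region and 1 GRHL2 region, which lay within 1 kb of the start of the gene (128748278 to 128748663). That region had a fold enrichment, the ratio of ChIP signal to local background, of 2.47 and a q of 0.0440, and its fold ranked 93669 of 153209. At the density of MLL3 regions on the rest of chromosome 8, 46 kb would hold 0.147 of them, and absence from a list does not show absence of the factor. The nearest MLL3 summits were 67 kb before and 119 kb after the start of MYC, at either end of a gap of 185 kb. Within 200 kb of the start, on both sides together, lay 5 of the 11 MLL3 and 13 of the 31 GRHL2 members. That distance was not planned, and no expected count was made for it.

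Before MYC, over 728 kb, there were 6 MLL3 and 8 GRHL2 members. The strongest MLL3 member of the whole locus was 74 kb before MYC (128673397 to 128674137), with a fold of 15.4, rank 884 of its list. It overlapped a GRHL2 region of only 4.02-fold (128673116 to 128673977), with 49 bp between the summits. A second MLL3 region of 4.87-fold followed 67 kb before MYC (128681112 to 128681403), on a GRHL2 region of 2.43-fold with a q of 0.0698. These 2 MLL3 regions were 6.97 kb apart, and with a joining distance of 10 kb they formed 1 of the 2 MLL3 clusters of the locus.

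The second strongest MLL3 member before MYC was 334 kb away (128413215 to 128413836), with a fold of 9.84. There GRHL2 was strong as well, with a fold of 15.9 (128412921 to 128414366) and a summit 61 bp from that of MLL3. The −log10 q of MLL3 members ran from 4.39 to 53.1, both before MYC. The weakest MLL3 member, of 3.85-fold, was 257 kb before MYC (128490850 to 128491058) and lay on a GRHL2 region of 2.32-fold with a q of 0.143. The remaining MLL3 members before MYC had no GRHL2 region. One was 441 kb away (128307043 to 128307317, 5.56-fold), with the nearest GRHL2 summit 69538 bp off. The other was 139 kb away (128608224 to 128608960, 5.58-fold), with the nearest GRHL2 summit 28711 bp off.

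The strongest GRHL2 member before MYC carried no MLL3 region. It lay 697 kb from the gene (128050683 to 128051622) and had a fold of 16.6 and a −log10 q of 100.1, with the nearest MLL3 summit 194 kb away. Of the 5 GRHL2 members with a −log10 q of 20 or more, it was 1 of 2 without an MLL3 region. The same share was not computed for the rest of chromosome 8. When both lists had to reach a −log10 q of 5, 44.4% of GRHL2 members and 35.9% of GRHL2 regions on the rest overlapped MLL3. The other GRHL2 members before MYC without MLL3 were weaker, with a fold of 3.51 at 103 kb (128644785 to 128645286), 2.83 at 510 kb and 1.78 at 111 kb. The 5 GRHL2 members of highest fold in this stretch were thus those at 697, 334, 74, 103 and 510 kb.

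After MYC, over 1826 kb, there were 5 MLL3 and 22 GRHL2 members, and each of the 5 MLL3 regions overlapped a GRHL2 region. The first pair of MLL3 regions lay at 119 kb (128866671 to 128867062, 7.88-fold) and 131 kb (128879280 to 128879658, 6.47-fold). Their GRHL2 partners had folds of 6.94 (128866123 to 128867111) and 2.83 (128879188 to 128879669). These partners belonged, with regions joined within 10 kb, to the GRHL2 cluster of the locus with most regions, 5 in 18.3 kb (128861389 to 128879669) with folds of 2.10 to 6.94. Joined within 5 kb it split into 3 and 2 regions, no more than the 3 of the cluster at 128812893 to 128820488. At 119 kb the summits were 458 bp apart, and at 131 kb they were 81 bp apart.

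The strongest GRHL2 member of the locus was 441 kb after MYC (129188739 to 129190012), with a fold of 29.0, a −log10 q of 148 and rank 2019 of its list. MLL3 had a fold of 8.19 there (129188821 to 129189631), with 86 bp between the summits. An MLL3 region of 5.27-fold at 449 kb (129197008 to 129197318) sat 5 bp, summit to summit, from a GRHL2 region of 2.26-fold with a q of 0.175. The members at 441 and 449 kb formed the other MLL3 cluster.

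The last MLL3 member was isolated. It lay 1161 kb after MYC (129909228 to 129909758) and had a fold of 12.5, the second highest of the locus, on a GRHL2 region of 4.0-fold (129909334 to 129909723). No MLL3 region was listed over the 712 kb before it. Of the GRHL2 members after MYC without MLL3, the strongest was at 65 kb (128812893 to 128813426), with a fold of 7.97 and a −log10 q of 25.9. The region at 114 kb (128861389 to 128861843), inside the cluster of 5, had a fold of 5.09, and that at 693 kb (129440389 to 129441087) had 5.06. With the regions of 29.0- and 6.94-fold, they made up the 5 highest GRHL2 folds after MYC.

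**Figure D1:**
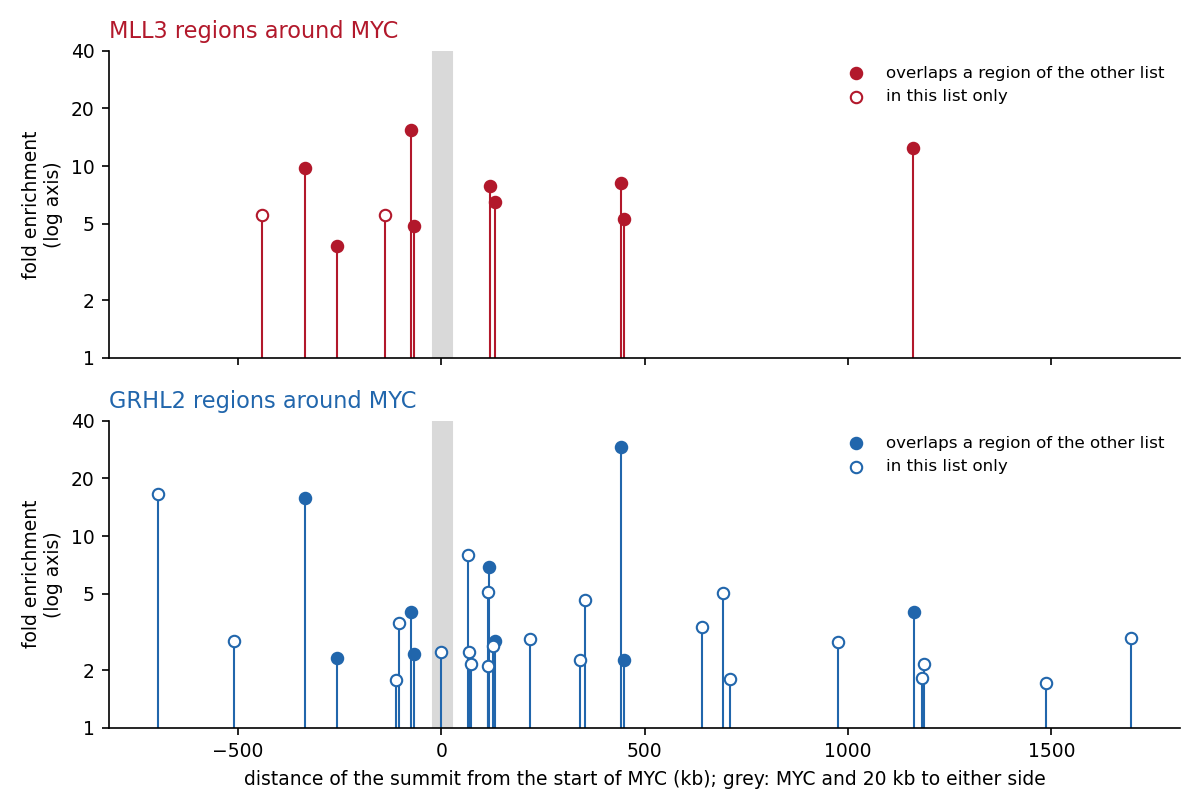
Fold enrichment (log axis) of the 11 MLL3 and 31 GRHL2 members against the distance of the summit from the start of MYC in kb, with filled points for regions that overlap the other list and open points for those that do not. The highest MLL3 point, 15.4, stands 74 kb before MYC and the highest GRHL2 point, 29.0, 441 kb after it, and the grey band around MYC holds 1 open GRHL2 point.

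The highest member was not the same for both factors. MLL3 was highest at 74 kb before MYC, where GRHL2 had 4.02-fold, and GRHL2 was highest at 441 kb after MYC, where MLL3 had 8.19-fold. Over the 9 overlapping pairs the Spearman rho of the fold enrichments was 0.68, a description of 9 points from the same 2 libraries. Contact of any region with MYC was not measured here.

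The share of MLL3 members with GRHL2 was near that of the chromosome. Of the 11 MLL3 members 9 (81.8%, Clopper-Pearson interval 48.2 to 97.7%) overlapped a GRHL2 region by at least 1 bp, against 380 of 460 MLL3 regions (82.6%) on the rest of chromosome 8. The share was 4 of 6 before MYC and 5 of 5 after it, and these counts are small. In the pairs 257 and 67 kb before MYC and 449 kb after it, the GRHL2 region had a q above 0.05. The distance between summits depended on which regions were counted. In the locus 5 of 11 MLL3 members (45.5%) had a GRHL2 summit within 100 bp, against 45.9% on the rest of chromosome 8, and the median distance in overlapping pairs was 86 bp in the locus and 85 bp on the rest. Over all MLL3 regions, overlapping or not, the median distance to a GRHL2 summit was 179 bp in the locus and 116.5 bp on the rest.

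MLL3 regions were about as dense as on the rest of chromosome 8, and GRHL2 regions were sparser. MLL3 had 4.23 regions per Mb in the locus (exact Poisson interval 2.11 to 7.57), against 3.21 (2.92 to 3.51) on the rest, a ratio of 1.32 (0.654 to 2.38). Its density was 8.24 per Mb (3.02 to 17.9) before MYC and 2.74 per Mb (0.889 to 6.39) after it. GRHL2 had 11.9 regions per Mb in the locus (8.10 to 16.9), against 42.0 (40.9 to 43.0) on the rest, a ratio of 0.284 (0.193 to 0.404). Against only the 10 Mb on either side of the locus, the GRHL2 ratio was 0.436.

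The ratio was nearer to 1 among stronger GRHL2 regions. Those that reached a −log10 q of 2 numbered 13 of 31 (41.9%, 24.5 to 60.9%), against 19.0% of the 6023 GRHL2 regions on the rest of chromosome 8. Their density was 5.00 per Mb in the locus (2.66 to 8.55) and 7.99 per Mb on the rest (7.53 to 8.46), a ratio of 0.626 (0.332 to 1.08). At a −log10 q of 20 or more there were 5 members, 1.92 per Mb, against 1.80 per Mb on the rest, a ratio of 1.07 (0.344 to 2.53). Among 56 end-to-end windows of 2.6 Mb on chromosome 8, the locus included, 47 held more GRHL2 regions than the locus and 31 held more that reached a −log10 q of 2. More MLL3 regions than in the locus were found in 15 of the windows.

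**Figure D2:**
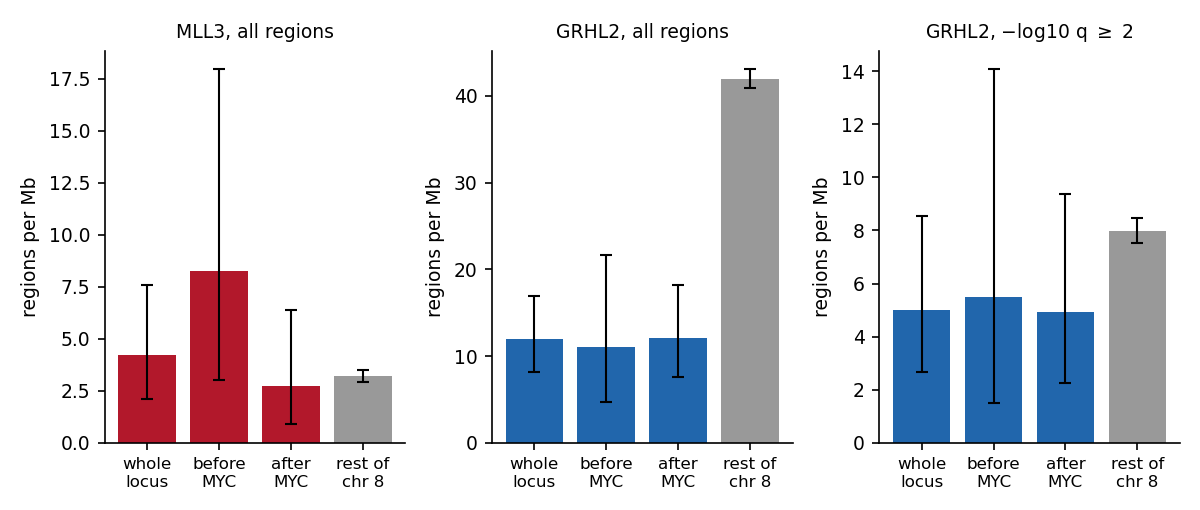
Regions per Mb in the whole locus, before MYC and after MYC (coloured bars) and on the rest of chromosome 8 (grey bar), with exact Poisson 95% intervals, for MLL3, all GRHL2 regions and GRHL2 regions that reach a −log10 q of 2. The GRHL2 bars are 11.9 per Mb in the locus and 42.0 on the rest, but 5.00 and 7.99 at the stricter threshold, where the intervals meet.

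Over all regions, but hardly among those of high background, GRHL2 members carried MLL3 more often than other GRHL2 regions of the chromosome. Of the 31 members 9 (29.0%, 14.2 to 48.0%) overlapped an MLL3 region, against 6.13% of those on the rest of chromosome 8. Among regions with a background of at least 3 expected fragments, the shares were 32.0% in the locus and 27.3% on the rest. When both lists had to reach a −log10 q of 2, they were 6 of 13 members (46.2%, 19.2 to 74.9%) and 24.7% on the rest. Median fold enrichments were close, at 2.83 in the locus and 2.80 on the rest for GRHL2, and at 6.47 in the locus and 7.09 on the rest for MLL3.

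The background against which regions were called was higher in the locus than on the rest of chromosome 8. The fold enrichment and p-value of a region together fix its pileup and its background, given the Poisson model with a pseudocount of 1 described under processing. The pileup is the number of ChIP fragments stacked at the summit, and the background is the number expected there in the call. The median background of the 11 MLL3 members was 3.64 fragments (1.64 to 4.91), against 1.60 on the rest of chromosome 8, where 95% of regions were at or below 2.95. The median of the 31 GRHL2 members was 3.78 (1.50 to 6.05), against 1.50 on the rest, where 95% were at or below 2.59. That 1.50 is the lowest background of the GRHL2 list. On the rest, 55.8% of GRHL2 and 28.7% of MLL3 regions sat at the lowest value of their list, against 6.45% and 0% of members. A background of at least 3 fragments was found at 10 of 11 MLL3 members and 25 of 31 GRHL2 members, against 3.48% of MLL3 and 2.01% of GRHL2 regions on the rest. No other window of 2.6 Mb on chromosome 8 with at least 5 regions had a higher median in either list (37 windows for MLL3 and 55 for GRHL2, the locus included).

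Both lists gave the same picture, but they need not be independent. At the 9 overlapping pairs the GRHL2 background was 1.20 times the MLL3 background (median, 0.917 to 1.32), and the lowest backgrounds of the lists, 1.50 and 1.26, stood in a ratio of 1.19. Whether both were called against the same input library is not given in the sources used here. Copy number of the locus was not measured here, and the part it has in the background was not tested.

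Among the members, the background was lower from about 700 kb after MYC, a mark read from these same values, with 1 exception. From the first member to 129441 kb, all 24 GRHL2 and 10 MLL3 members had at least 3 fragments, and the value at the start of MYC was 5.47. Of the 7 GRHL2 members more than 700 kb after MYC, 6 had 1.50 to 2.88 fragments, and the MLL3 member at 1161 kb had 1.64. The exception was the last GRHL2 member, 1696 kb after MYC, with 3.74. Just before the locus, the 2 nearest regions of each list (summits at 127818 and 127858 kb) had 2.62 and 3.12 fragments in the MLL3 list and 2.88 and 3.73 in the GRHL2 list. They overlapped pairwise, with MLL3 folds of 6.63 and 8.73 and GRHL2 folds of 3.09 and 3.38. Just after it, the 2 nearest had 2.11 and 1.85 fragments (MLL3, both at 130799 kb) and 2.30 and 2.02 (GRHL2, at 130751 and 130755 kb). Further on the background was higher again. From 131 to 132 Mb its median was 2.95 at 5 MLL3 regions (up to 4.26) and 2.90 at 20 GRHL2 regions (up to 4.89).

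**Figure D3:**
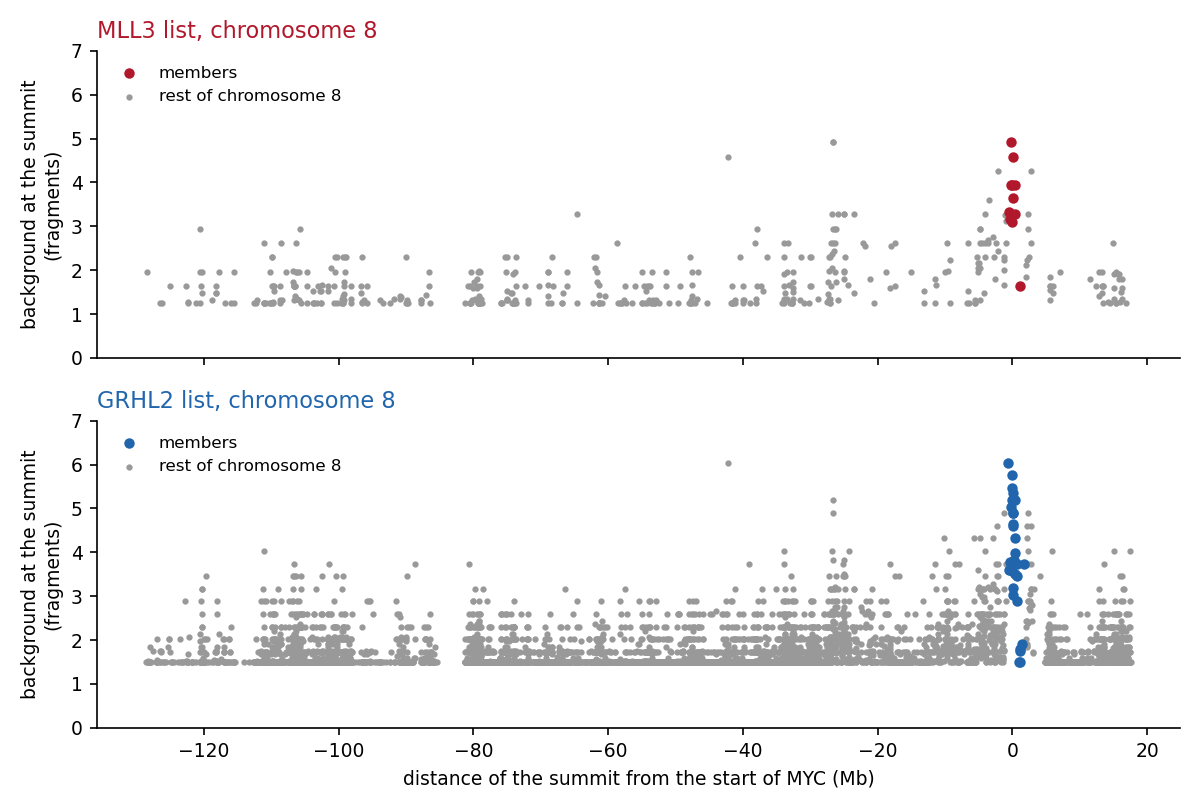
Background at the summit, in fragments, of every region on chromosome 8 against its distance from the start of MYC in Mb, with members coloured and other regions grey. The members reach 4.91 in the MLL3 list and 6.05 in the GRHL2 list, and their medians of 3.64 and 3.78 stand above those of the rest, 1.60 and 1.50.

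GRHL2 regions with few fragments made up a smaller share of the locus than of the rest of the chromosome. A pileup of 6 fragments or fewer was found at 5 of the 31 members (16.1%), all more than 700 kb after MYC, against 60.7% of the 6023 GRHL2 regions elsewhere on chromosome 8. The fewest fragments a list can hold depend on the background by construction. By the Poisson tail alone, a p of 0.05 is met by 4 fragments at the lowest background of the list, by 7 at the median background of the members and by 10 at the background found at MYC. Compared at a background of at least 3, GRHL2 regions of the locus and of the rest of the chromosome were close. Such regions overlapped MLL3 in 8 of 25 members (32.0%, 14.9 to 53.5%) and in 33 of 121 others (27.3%, 19.6 to 36.1%), and had a −log10 q of 2 or more in 48.0% of members and 47.1% of others. The values of the others lay within the intervals of the members. The part of the background in the number of GRHL2 regions was not tested.

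Fragments at MLL3 summits were more numerous in the locus, and this was also so among regions with a background of at least 3. That class has no upper bound, and backgrounds within it were not matched. The median pileup of the 11 MLL3 members was 32 fragments (18 to 62), against 18 on the rest of chromosome 8. At a background of at least 3, the median was 30.5 in 10 members and 22.5 in 16 others, with median folds of 6.02 in those members and 5.14 in those others. Over all regions the median fold was instead lower in the locus, at 6.47 against 7.09 on the rest. GRHL2 members had a median pileup of 13 (4 to 130), against 6 on the rest. At a background of at least 3 these medians were 14 in the locus and 12 on the rest.

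With the lowest background of the list put in place of the local one, regions are ordered by pileup alone, and most members moved up. Among those that moved down was the MLL3 member at 1161 kb, from rank 1459 to 1788. The MLL3 median fold was then 14.6 in the locus and 8.42 on the rest of chromosome 8, and the GRHL2 median 5.60 in the locus and 2.80 on the rest. By the deposited fold 3 of the 11 MLL3 members stood in the first 25% of their list, and by this one 8 did. The member 139 kb before MYC, for example, had 32 fragments, as many as the member at 1161 kb. Its deposited fold was 5.58 over a background of 4.91, and that of the member at 1161 kb was 12.5 over 1.64. The GRHL2 region at the start of MYC, with 15 fragments over 5.47, ranked 93669 by the deposited fold and 12122 with the lowest background. The fold over the lowest background ignores the local background on purpose and is no better estimate of binding.

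**Figure D4:**
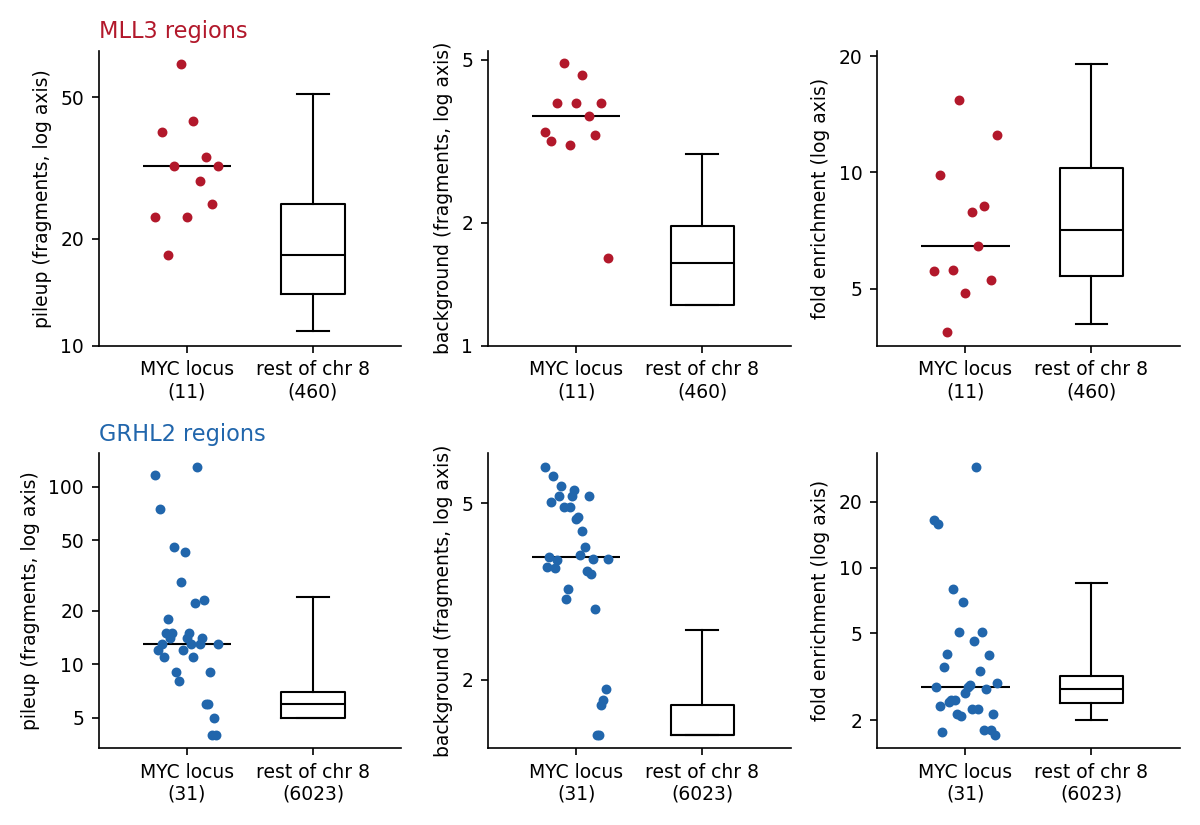
Pileup, background and fold enrichment (log axes) of the members (points, with the median as a line) and of the rest of chromosome 8 (box of quartiles with the median, whiskers from the 5th to the 95th percentile), for MLL3 above and GRHL2 below. Pileup and background are higher in the locus (medians 32 against 18 and 3.64 against 1.60 fragments for MLL3), whereas the medians of fold lie close together (6.47 against 7.09).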

How the data were processed

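The authors deposited 1 narrowPeak list per antibody, called against input as the deposited lists are named. BWA, Picard, MACS2 and deepTools are listed, with build hg19, in the submitters' processing notes. Their roles, versions and parameters were not given in the sources used here. Each region's fold enrichment (a ratio), its −log10 p-value and its −log10 q-value were deposited by the authors. The MLL3 list ends at a −log10 q of 2.07 and the GRHL2 list at a −log10 p of 1.30, so their lengths are not comparable. Read totals are not given.

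Pileup and background were solved from fold = (pileup + 1)/(background + 1) and p = the Poisson probability of more fragments than the pileup. A whole-number pileup met all 12196 and 153209 p-values within 0.000128 on the −log10 scale, and the next whole number missed by at least 0.00922. Overlap, intervals and this solution were checked on simulated regions with Python 3.11.15 and scipy 1.17.1. The rest of chromosome 8 (143.5 Mb) runs from the first to the last region of either list. The named regions are all MLL3 members, all members within 20 kb of MYC, the 5 highest GRHL2 folds per stretch, and GRHL2 members with a −log10 q of 20 or more and no MLL3. No genes were ranked by likeness to MYC, because no hg19 annotation was used here. Members and rules were chosen with earlier results of these data known. Coordinates are 1-based. The 46 kb stretch, the background and the pileup are described with the results. The comparisons at a background of at least 3 and with the lowest background of the list were added after seeing the data. RefSeq (GRCh38.p14) gave gene order only.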

Additional observations from a re-analysis of the deposited data

How the results depend on the processing

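Of 63 alternative values, 33 stayed within the interval, or within 1.5 times the count, of the reported one, and 9 of the 63 were chosen after seeing the data. The density ratio of MLL3 kept to its wide interval under each alternative run, though a −log10 q of 2 removes no MLL3 region. That of GRHL2 was 0.626, 0.887 and 0.737 when the −log10 q had to reach 2, when it had to reach 5 and when the fold had to reach 5, and 0.436 against the 10 Mb on either side; 31 windows held more regions that reached a −log10 q of 2. The MLL3 share with GRHL2 was 54.5% in the locus and 64.1% on the rest of chromosome 8 when both lists had to reach a −log10 q of 2, 40.0% and 54.7% at 5, and 33.3% and 51.7% when both had to reach a fold of 5, with member intervals that hold the shares of the rest. With summits within 100 bp it was 45.5% of members. Under these thresholds 46.2%, 44.4% and 42.9% of GRHL2 members had MLL3, against 24.7%, 35.9% and 37.0% of those on the rest. Median GRHL2 folds of members were 5.06, 6.94 and 7.97 under the 3 thresholds, which remove weak regions by construction. With the lowest background, medians were 14.6 (MLL3 members), 8.42 (MLL3 rest) and 5.60 (GRHL2 members). Within 10 Mb of the locus the comparison had median folds of 6.05 (MLL3) and 2.65 (GRHL2) and 9.14% of GRHL2 regions with MLL3. At a background of at least 3 it had median folds of 5.14 and 2.88, shares of 75.0% and 27.3%, and 47.1% of GRHL2 regions reaching a −log10 q of 2. Of all GRHL2 regions on the rest of chromosome 8, 9.30% reached a −log10 q of 5. Joining within 5 kb left 0 MLL3 and 4 GRHL2 clusters, against 2 and 6. Few members, 1 library per antibody and the unequal thresholds limit every comparison. No paired analysis was possible because a single library was made per antibody.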

Other observations

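Raised background was not particular to the MYC locus. Over windows of 2.6 Mb counted from the start of each chromosome, with at least 5 regions, 9 of 765 windows in the MLL3 list and 15 of 1117 in the GRHL2 list had a higher median background than the locus. Of the 20 highest windows, chromosome 3 held 11 in the MLL3 list and 13 in the GRHL2 list. On chromosome 8, 47 of the 121 GRHL2 regions outside the locus with a background of at least 3 fragments lay within 10 Mb of it. The median over all 547 GRHL2 regions in those flanks was 1.79 fragments, against 3.78 in the locus.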
